A study of Mus musculus with 15 samples.

Results

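Heme, the iron-bearing porphyrin of hemoglobin and of many oxidising enzymes, is built in a fixed order of steps. The pathway starts in the mitochondrion from glycine and succinyl-CoA, passes through the cytosol, and returns to the mitochondrion, where iron is put into the finished ring. Developing red cells make most of the heme of the marrow, and they start the pathway with a synthase of their own, Alas2, in place of the ubiquitous Alas1. Described here are 9 genes of this pathway, taken by gene name from a table of 38315 genes. In pathway order they are the glycine carrier Slc25a38, the synthases Alas1 and Alas2, the porphyrin-building enzymes Alad, Uros, Urod, Cpox and Ppox, and the ferrochelatase Fech. All 9 passed the filter on low values, a normalized count of at least 10 in at least 4 libraries, which kept 18941 genes. No member was at or under the value of 3 reads in any library. In GRCm38, Alad and Urod lie on chromosome 4, Alas1 and Slc25a38 on chromosome 9, Ppox on chromosome 1, Uros on chromosome 7, Cpox on chromosome 16, Fech on chromosome 18 and Alas2 on the X chromosome.

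The study sequenced total RNA from mouse bone marrow in bulk and compared leukemic with normal marrow. The leukemic group is 7 samples of acute myeloid leukemia (AML) marrow from transgenic mice of the genotype NUP98-NSD1/FLT3-ITD, a gene fusion of the nucleoporin NUP98 with the histone methyltransferase NSD1 together with an internal tandem duplication in the receptor FLT3. The controls are wild-type whole marrow (n = 4) and wild-type lineage-negative marrow (n = 4), which is marrow depleted of cells bearing antigens of mature blood lineages. Age, strain, the promoters behind the alleles, the antibodies of the depletion, and whether each library of a group is a separate mouse are not given in the sources used here. The p-values therefore measure the spread between these libraries, which may in part be technical.

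Estimated depth was 20.3 to 35.1 M reads (M, mega) for AML, 11.4 to 17.2 M for whole marrow and 20.3 to 28.1 M for lineage-negative marrow. Values are the authors' normalized counts, read counts divided by a size factor of each library, and differences are on the log2(normalized count + 1) scale. The log2 differences of all kept genes had a median of 0.67 for AML minus whole marrow, 0.02 for AML minus lineage-negative marrow and 0.59 for lineage-negative minus whole marrow. Under TMM scaling (trimmed mean of M values) these medians were 0.01, 0.05 and −0.10, so a difference from whole marrow is also given with TMM scaling where its direction or call changes. A gene was called when the adjusted p was under 0.05 and the absolute log2 difference was at least 1, in limma's two-sided test with Benjamini-Hochberg adjustment over all genes kept. Both comparisons of AML use the same 7 AML libraries, and both comparisons with whole marrow the same 4 whole marrow libraries.

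In AML marrow the erythroid synthase, the porphyrin-building enzymes and the ferrochelatase had fewer transcripts than in whole marrow, while the ubiquitous synthase Alas1 did not pass the test. Of the 9 genes, AML had 7 called lower than whole marrow (Alas2, Alad, Uros, Urod, Cpox, Ppox and Fech), and 0 called higher. Among all genes kept, 11.3% were called lower and 27.3% higher in this comparison, and with TMM scaling 15.8% and 4.92%. With TMM scaling Slc25a38 joined the members called lower, which made 8. The median log2 difference over the members was −2.49. Every AML library was below every whole marrow library for the same 7 genes, as for 7.88% of all genes kept, while 35.8% of all genes had every AML library above. With TMM scaling this held for 8 members, with Slc25a38 added, and for 14.6% of all genes, with 11.5% above.

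Against lineage-negative marrow, AML was lower at Alad, Uros, Urod, Cpox and Fech, and neither synthase passed the test. Members called lower were these 5, where 12.5% of all genes were called lower, and 0 were called higher, where 17.7% of all genes were. The median over the members was −1.15. All AML libraries were below all lineage-negative libraries for these 5 genes, as for 17.6% of all genes kept, and 17.0% had every AML library above.

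**Figure D1:**
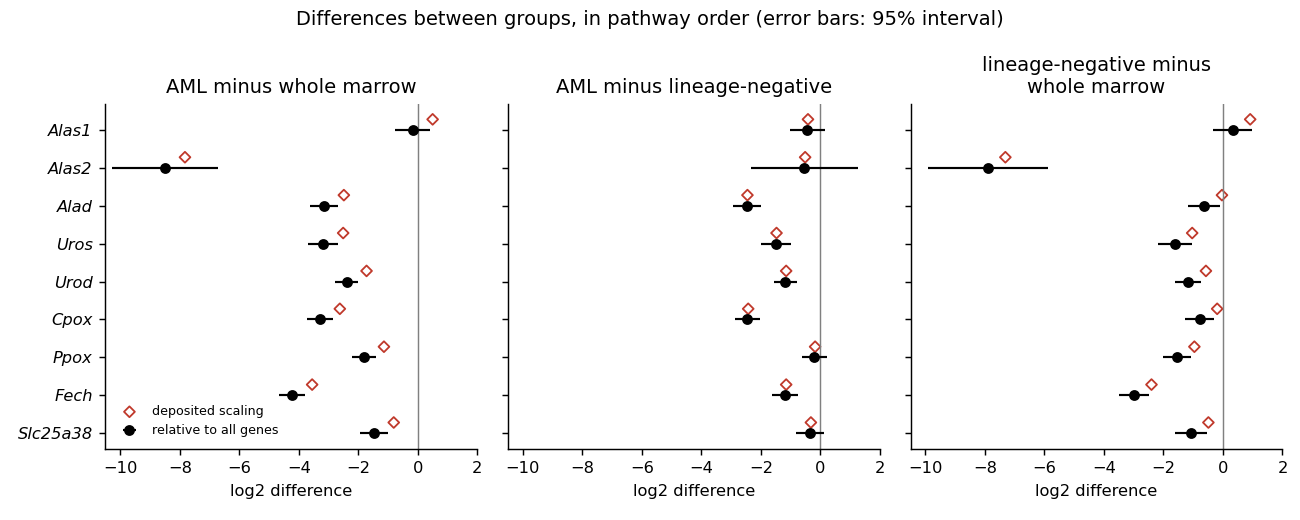
Log2 differences of the 9 heme synthesis genes in the 3 comparisons, on the horizontal axis, with the genes from top to bottom and Slc25a38 last. Open diamonds are limma differences with the deposited scaling. Filled circles are the same differences minus the median of all genes, with 95% intervals. Alas2 lies farthest to the left against whole marrow (−7.83 in AML), while Alas1 lies at 0.50, −0.42 and 0.92 in the 3 panels.

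The glycine carrier Slc25a38 brings glycine into the mitochondrion for the synthases. In AML it ranged from 442 to 768 normalized counts, with a median of 522. Whole marrow replicates 1 to 4 had 509, 1195, 1111 and 1228, and lineage-negative replicates 1 to 4 had 856, 708, 593 and 594. Whole marrow replicate 1 fell within the AML range, and the other whole marrow libraries were above every AML library. That library had a total of 10.2 M normalized counts, against 17.9 M to 19.3 M in the other 3, and TMM multiplied its values by 2.12, against 1.23 to 1.27. With those factors Slc25a38 was 1078 in replicate 1 and 1407 to 1516 in the others, all above the highest AML library at 700.2. The log2 difference from whole marrow was −0.81 (SE 0.23, limma adjusted p = 0.00434), short of the size set for a call. It was −1.49 with TMM scaling, which is called, and −1.11 without whole marrow replicate 1, which is called as well. Against lineage-negative marrow the difference was −0.32 (95% interval −0.79 to 0.15), with overlapping groups.

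Alas1, the ubiquitous synthase and the first and regulated enzyme of the pathway in most cells, had 2206 to 6260 normalized counts in AML with a median of 3576. The whole marrow replicates had 1554, 2773, 3307 and 2582, and the lineage-negative replicates 6421, 4239, 3871 and 4426. AML overlapped with both control groups. The 4 AML libraries with the most Alas1, replicates 6, 1, 5 and 4, were above all whole marrow libraries. The other 3 lay within the whole marrow range, and these 3 and replicate 4 lay below all lineage-negative libraries. The place of AML beside whole marrow depends on the scaling. With TMM scaling whole marrow ran from 3189 to 4187, and only AML replicates 6 and 1 (5821 and 4227) were above all of it. AML replicates 2, 3 and 7 (2069, 2223 and 1933) were then below every whole marrow library. The log2 difference of AML minus whole marrow was 0.50 (SE 0.28, limma adjusted p = 0.126) with the deposited scaling and −0.18 with TMM scaling, so its direction depends on the scaling. AML minus lineage-negative marrow was −0.42 (SE 0.28, limma adjusted p = 0.242, 95% interval −1.002 to 0.17). Neither difference was called. Alas1 (ENSMUSG00000032786) lies at chr9:106233455-106248654 on the minus strand of GRCm38.

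Alas2, the erythroid synthase, is switched on in maturing red cell precursors, and its messenger carries an iron-responsive element. The gene (ENSMUSG00000025270) lies at chrX:150547375-150570638 on the plus strand of GRCm38. It gave the widest contrast among the members. Whole marrow replicates 1 to 4 had 12290, 21001, 23137 and 27472 normalized counts. In AML the lowest library, replicate 1, had 5.49, the median was 84.9, and the highest, replicate 3, had 579. Lineage-negative replicates 1 to 4 had 664, 33.8, 87.5 and 124. Every AML and every lineage-negative library was therefore far below every whole marrow library, and AML and lineage-negative marrow overlapped. The log2 difference of AML minus whole marrow was −7.83 (SE 0.86, limma adjusted p = 1.06e-06), a 227-fold lower fitted level. Without AML replicate 1 it was 147-fold, and 147-fold to 310.4-fold with each library left out in turn. Ranked from the lowest difference, Alas2 was gene 13 of 18941 in this comparison. AML minus lineage-negative marrow was −0.51 (SE 0.86, limma adjusted p = 0.653), with a 95% interval of −2.30 to 1.28. That interval leaves differences of more than 2-fold in either direction possible, and the sign turned to 0.12 without AML replicate 1 and to 0.29 without lineage-negative replicate 1.

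The sequence before the Alas2 start is shown because GATA1, whose own transcript is described further on, is known to act on this promoter. It is RefSeq sequence of GRCm38.p6, chrX:150547167-150547374 on the plus strand, and ends 42 bases before the RefSeq start, where a GENCODE exon begins. Capitals mark the only GATA hexamer (the letters GATA with A or T before them and A or G after them, on either strand) in the 250 bases before the start, at 86 bases.
Alas2 upstream: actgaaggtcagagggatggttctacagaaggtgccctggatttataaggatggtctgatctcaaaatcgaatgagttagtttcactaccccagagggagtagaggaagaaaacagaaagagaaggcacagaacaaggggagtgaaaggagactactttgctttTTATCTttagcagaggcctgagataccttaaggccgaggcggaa

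In the last 42 bases before the start, 4 matches to a CACCC box (CCNCNCCC on either strand, the kind of site read by KLF1) began 42, 40, 35 and 26 bases before it, and the 3 farthest overlap each other in turn. Of 32851 RefSeq mouse windows of this length, 26.5% hold a GATA hexamer and 45.9% a CACCC box, and 27.3% hold 2 or more CACCC boxes.

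Alas1 windows held no GATA hexamer, but both held CACCC boxes, at 228 bases before one start and at 206 and 47 bases before the other. One of its RefSeq windows held a pair of matches to the NRF1 palindrome, the site read by the factor of that name, with any base allowed at its sixth letter and on either strand, 224 and 195 bases before the start, where 3.74% of all windows hold any. Of the 250 bases of that window 235 lie in annotated exons, as do all 250 of the other Alas1 window. A Uros window held a match too. The nearer NRF1 match of Alas1 is shown, in capitals, with its neighbouring bases at chr9:106247906-106247935 on the minus strand, for comparison with the Alas2 sequence. The stretch begins within the CACCC box at 206 bases, which is not in capitals. The matches are letters found in these windows, and no binding was measured.
Alas1 stretch: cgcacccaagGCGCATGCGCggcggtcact

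Set against each other within a library, the synthases changed order between marrows. Per kilobase of exon, Alas2 exceeded Alas1 17.98-fold to 27.3-fold in the 4 whole marrow libraries, and 7.00-fold to 10.6-fold in normalized counts. The length covers the exons of all annotated transcripts, 6174 bases for Alas1 and 2403 for Alas2. In all 7 AML libraries Alas1 exceeded Alas2, by 1.64-fold in replicate 3, 4.90-fold in replicate 7, 5.66-fold in replicate 4, 15.5-fold in replicate 2, 28.7-fold in replicate 6, 34.6-fold in replicate 5 and 348-fold in replicate 1. Alas2 in AML replicate 1 was 5.49 normalized counts, close to the value of 3 reads (3.82 in that library), which limits the 348-fold value. In lineage-negative replicates 1 to 4 Alas1 exceeded Alas2 by 3.77-fold, 48.9-fold, 17.2-fold and 13.9-fold. The order of the synthases was thus the same in AML and lineage-negative marrow and the opposite in whole marrow.

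The log2 ratio of Alas2 to Alas1, which the size factor of a library does not touch apart from the pseudocount, had a mean of −5.30 ± 2.43 for AML (SD, n = 7), of 3.03 ± 0.264 for whole marrow (SD, n = 4) and of −5.20 ± 1.503 for lineage-negative marrow (SD, n = 4). The difference of AML minus whole marrow was −8.33 log2 units, lower in 7 of 7 libraries, with an exact two-sided permutation p of 0.00303 over 330 splits, the smallest possible, and 0.00909 after adjustment over 3 comparisons. Lineage-negative minus whole marrow was −8.23, lower in 4 of 4 libraries, with an exact two-sided permutation p of 0.0286 over 70 splits, the smallest possible, and 0.0429 adjusted. AML and lineage-negative marrow differed by −0.10, with an exact two-sided permutation p of 0.961. The sign of that last difference varied with the libraries included, from −0.67 to 0.62.

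**Figure D2:**
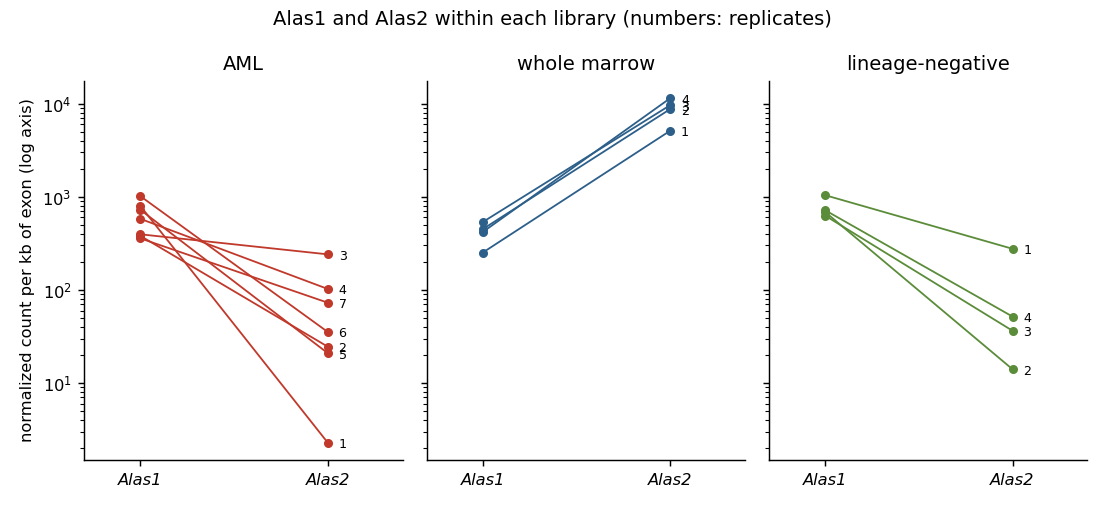
Normalized counts per kilobase of exon (log axis) of Alas1 and Alas2, joined by a line for each library, with replicate numbers at the right of each line. Lines climb in all 4 whole marrow libraries and descend in all 7 AML and all 4 lineage-negative libraries. They descend most steeply in AML replicate 1 (348-fold, with Alas2 close to the value of 3 reads) and least in AML replicate 3 (1.64-fold).

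Alad, which joins aminolevulinate into porphobilinogen, had 170 to 317 normalized counts in AML with a median of 229. Whole marrow replicates had 707, 1502, 1734 and 1693, and lineage-negative replicates 1405, 1340, 1215 and 1243. No AML library came near either control group. Alad fell by 2.49 on the log2 scale against whole marrow (SE 0.23, limma adjusted p = 1.37e-07) and by 2.45 against lineage-negative marrow (SE 0.23, limma adjusted p = 4.09e-08). Between the controls the log2 difference of Alad was −0.03 (95% interval −0.57 to 0.50). With TMM scaling that last difference was −0.74, under the size set for a call.

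Uros, the enzyme that closes the chain into the uroporphyrinogen ring, had 103 to 218 normalized counts in AML with a median of 151. Whole marrow replicates had 478, 927, 932 and 1117, and lineage-negative replicates 378, 368, 361 and 519. All AML values lay below all control values. The log2 difference was −2.51 against whole marrow (SE 0.24, limma adjusted p = 2.82e-07) and −1.47 against lineage-negative marrow (SE 0.24, limma adjusted p = 5.44e-05). Uros shares bases with the gene Bccip, and the strand used for counting is not given in the sources used here, so reads of the pair may not be separated. The same holds for Alas1 with 4930500F10Rik, Alas2 with Apex2, Cpox with Gpr15 and Ppox with B4galt3. Over the 15 libraries Bccip averaged 718 normalized counts, B4galt3 689, Apex2 249, Gpr15 47.4 and 4930500F10Rik 5.03. Alas2 in AML averaged 171 normalized counts, under the mean of Apex2.

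Urod, which trims the side chains of uroporphyrinogen, was the steadiest member within AML, with 547 to 739 normalized counts and a median of 656. Whole marrow replicates had 1270, 2401, 2601 and 2725, and lineage-negative replicates 1470, 1553, 1326 and 1459. AML lay below both groups in every library. The log2 difference was −1.72 against whole marrow (SE 0.19, limma adjusted p = 9.08e-07) and −1.15 against lineage-negative marrow (SE 0.19, limma adjusted p = 4.30e-05).

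Cpox makes protoporphyrinogen from coproporphyrinogen in the space between the mitochondrial membranes. It had 356 to 566 normalized counts in AML with a median of 492, 1777, 2888, 3350 and 4109 in the whole marrow replicates, and 3139, 2334, 1946 and 2889 in the lineage-negative replicates. The control groups overlapped each other, and both lay above all AML libraries. Cpox fell by 2.62 against whole marrow (SE 0.21, limma adjusted p = 2.41e-08) and by 2.43 against lineage-negative marrow (SE 0.21, limma adjusted p = 1.56e-08), both on the log2 scale.

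The window before the Cpox start held a pair of GATA hexamers on either strand, 91 and 86 bases before the start, which share a base and are in capitals. It is shown because 6.40% of all windows hold 2 or more GATA hexamers. A Uros window, not shown, also held a pair, at 205 and 68 bases before its start. The Cpox sequence is RefSeq GRCm38.p6, chr16:58669958-58670207 on the plus strand, the 250 bases before the start.
Cpox upstream: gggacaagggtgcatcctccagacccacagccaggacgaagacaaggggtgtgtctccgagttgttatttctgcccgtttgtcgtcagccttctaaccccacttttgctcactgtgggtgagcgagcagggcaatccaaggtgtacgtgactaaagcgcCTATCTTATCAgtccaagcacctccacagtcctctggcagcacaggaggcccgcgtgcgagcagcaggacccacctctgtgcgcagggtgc

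Of the 11 windows of the 8 members with a RefSeq promoter entry, 3 held a GATA hexamer (Alas2, Cpox and Uros). That is 27.3%, a share near the 26.5% of all windows. A CACCC box was in 7 of the 11 windows (63.6%), over 5 members, beside 45.9% of all windows.

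Ppox oxidises protoporphyrinogen to protoporphyrin, the substrate of Fech. AML had 624 to 868 normalized counts with a median of 730. Whole marrow replicates had 954, 1721, 1953 and 2179, all above AML, while lineage-negative replicates had 928, 744, 878 and 802 and overlapped with AML. Ppox fell by 1.14 against whole marrow on the log2 scale (SE 0.20, limma adjusted p = 8.11e-05), and the difference was −0.997 without whole marrow replicate 4, just under the size set for a call. Against lineage-negative marrow the difference was −0.18 (95% interval −0.59 to 0.23, limma adjusted p = 0.488).

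Fech, the ferrochelatase that inserts iron into protoporphyrin, showed the largest log2 difference from whole marrow after Alas2 among the members. AML had 543 to 950 normalized counts with a median of 723. Whole marrow replicates had 6045, 8694, 9488 and 11369, and lineage-negative replicates 2170, 1325, 1225 and 2056. The 3 groups followed each other without overlap, AML lowest, lineage-negative marrow between and whole marrow highest. The log2 difference was −3.55 against whole marrow (SE 0.21, limma adjusted p = 7.15e-10), an 11.7-fold lower fitted level, and −1.15 against lineage-negative marrow (SE 0.21, limma adjusted p = 1.57e-04).

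**Figure D3:**
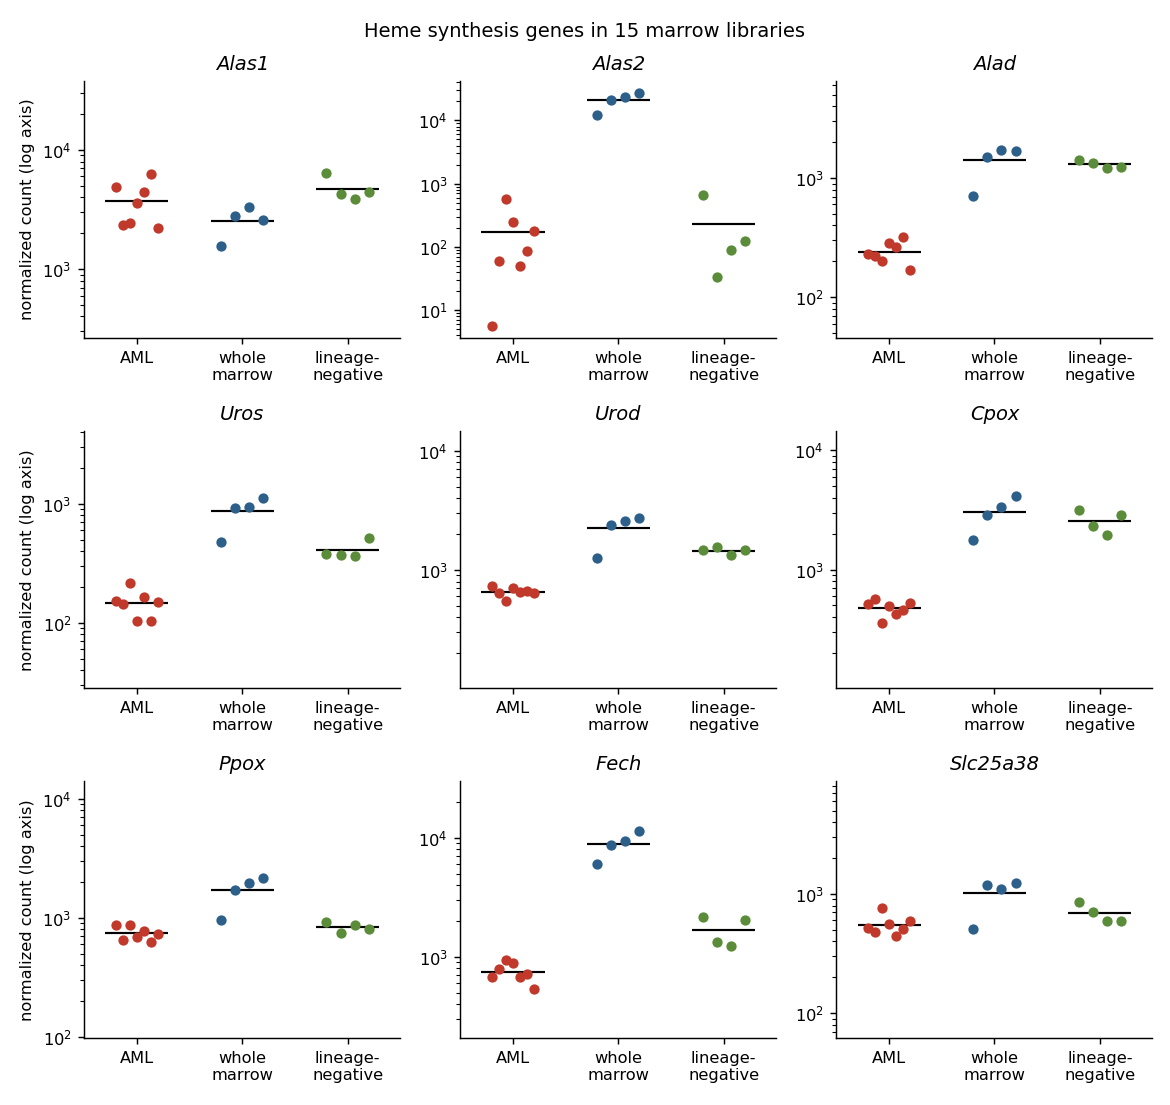
Normalized counts (log axis) of the 9 genes in each library, with points for AML (7), whole marrow (4) and lineage-negative marrow (4) and a line at each group mean. Points run by replicate number from left to right within a group. AML lies below both controls without overlap for Alad, Uros, Urod, Cpox and Fech, and the lowest whole marrow point is replicate 1 in all 9 panels.

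Between the normal marrows, the erythroid synthase and the ferrochelatase showed the largest differences among the members. Of the 9 genes, 3 were called lower in lineage-negative than in whole marrow (Alas2, Uros and Fech), where 17.2% of all genes were called lower, and 0 were called higher, where 33.1% of all genes were. TMM scaling called 6 members lower, with Urod, Ppox and Slc25a38 added, where it called 24.8% of all genes lower and 10.8% higher. Every lineage-negative library was below every whole marrow library for 3 members (Alas2, Ppox and Fech), as for 16.6% of all genes, and above for Alas1, as for 41.1%. With TMM scaling this held for 8 members below, all but Alas1, and 0 above, beside 30.3% and 23.5% of all genes. Alas2 differed by −7.31 on the log2 scale (SE 0.97, limma adjusted p = 3.44e-06) and Fech by −2.40 (SE 0.24, limma adjusted p = 1.67e-07). Uros differed by −1.03 (SE 0.27, limma adjusted p = 0.00282), and this call was lost without any of whole marrow replicates 2, 3 or 4 or lineage-negative replicates 2 or 3, at −0.98, −0.98, −0.89, −0.99 and −0.98. Alas1 had a log2 difference of 0.92 (SE 0.32, limma adjusted p = 0.0164) that is short of the size set for a call and is 0.21 with TMM scaling. The median over the members was −0.57, and −1.28 with TMM scaling.

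Per kilobase of exon, a rough allowance for gene length, the order of the members differed between marrows. The length covers the exons of all annotated transcripts, 13838 bases for Fech and 2591 for Urod, and the order depends on it. By normalized counts AML averaged 750 for Fech and 655 for Urod, the reverse of their order per kilobase. In AML Alas1 stood first at 606 ± 250 normalized counts per kilobase (SD, n = 7), ahead of Urod at 253 ± 23.2 and Slc25a38 at 201 ± 39.2. The lowest members in AML were Cpox at 71.4 ± 10.6, Alas2 at 71.3 ± 82.1, Fech at 54.2 ± 9.87 and Uros at 41.5 ± 10.996, and Alas2 did not differ from these neighbours beyond its spread. Without AML replicate 3 Alas2 averaged 43.03 ± 37.3 (SD, n = 6). In whole marrow Alas2 stood first at 8729 ± 2657 (SD, n = 4), ahead of Urod at 868 ± 257, and Alas1 was the sixth at 414 ± 119. In lineage-negative marrow Alas1 led at 768 ± 185 (SD, n = 4), within its spread of Alad at 695 ± 46.8, and Alas2 was last at 94.6 ± 122, or 34.0 ± 18.9 without replicate 1 (SD, n = 3).

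Taken as a share of the 9-gene total per kilobase, Alas2 made up 67.9 ± 1.19% in whole marrow, 4.57 ± 5.12% in AML and 2.64 ± 3.02% in lineage-negative marrow. Alas1 made up 3.27 ± 0.511%, 37.0 ± 10.4% and 23.96 ± 1.88% in the same order. The total itself was 12848 ± 3855 normalized counts per kilobase in whole marrow (n = 4), 1592 ± 239 in AML (n = 7) and 3177 ± 501 in lineage-negative marrow (n = 4, all errors SD).

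The members also differed in how much they varied within a group. In AML the coefficient of variation was 115% for Alas2, with a 105-fold range between libraries, and 41.2% for Alas1, with a 2.84-fold range. The range of Alas2 was 11.5-fold without AML replicate 1 and 44.8-fold without replicate 3. The coefficient of variation in AML was 9.17% for Urod, 13.04% for Ppox and 14.8% for Cpox. In lineage-negative marrow Alas2 had a coefficient of 129%, or 55.6% without replicate 1, while Urod had 6.45% and Alad 6.73%. In whole marrow all 9 members lay between 24.8% and 34.0%, and all 9 had their lowest value in replicate 1, while 7 had their highest in replicate 4. With TMM scaling, which raised replicate 1 the most, they lay between 10.2% and 16.4%, and 5 had their lowest value in replicate 1.

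Red cell genes were also lower in AML than in whole marrow. Of 15 erythroid markers 14 were matched in the table, and their summed normalized counts ran from 465.7 to 32729 for AML, from 813434 to 2003830 for whole marrow and from 35091 to 74510 for lineage-negative marrow. No marker was at 0 throughout a group. AML had all 14 called lower against whole marrow, and 9 of 14 against lineage-negative marrow, beside 11.3% and 12.5% of all genes kept. The 5 not called in the latter comparison were the 4 adult globin genes and the anion exchanger gene Slc4a1, which mark late red cell precursors, with log2 differences of −1.53 to −0.48. Without the globins the sum ran from 95.4 to 3647 for AML and from 31249 to 35828 for lineage-negative marrow, without overlap. In these bulk libraries fewer red cell precursors and less transcript in each cell cannot be told apart, and the part of the erythroid cells in the differences of the heme genes was not tested.

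Among 10407 ranked genes with a mean of at least 100, those most like Alas2 over the 15 libraries were Hba-a2, Hbb-bs and Hbb-bt, each with a Pearson r of 0.996, Hba-a1 with 0.991 and Slc4a1 with 0.986. These values describe 15 libraries that share 3 groups and their scaling. The genes most like Alas1 were Prtn3 (0.939), which encodes a granule protease of neutrophil precursors, Afap1 (0.905), Mfn2 (0.900), Gfi1 (0.893) and Egln3 (0.892). Alas1 and Alas2 had an r of −0.50 with each other. Of the other members, Fech was the most like Alas2, with an r of 0.903, and Alad the least, with 0.553.

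Beside Slc4a1, Alas2 kept the order of the libraries within AML nearly unchanged. The AML replicates ran 3, 4, 7, 6, 2, 5 and 1 from the highest to the lowest Alas2 and 3, 4, 7, 6, 5, 2 and 1 for Slc4a1. The ratio of Alas2 to Slc4a1 normalized counts was 0.221 to 0.406 in AML, 0.638 to 0.677 in whole marrow and 0.127 to 0.227 in lineage-negative marrow. AML was below whole marrow in every library by this ratio, and overlapped with lineage-negative marrow in replicate 5 alone. The ratio is a description, given without a test because Slc4a1 was picked as a gene like Alas2.

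**Figure D4:**
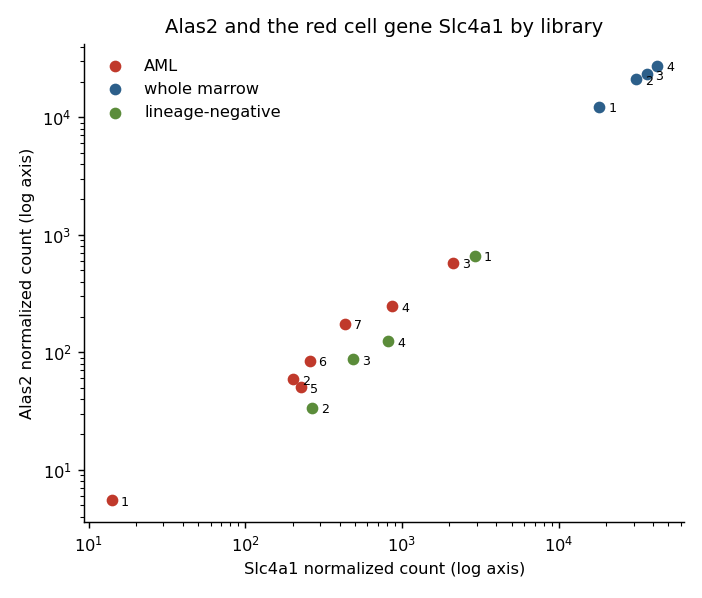
Alas2 against Slc4a1 normalized counts in 15 libraries, both axes log, with replicate numbers beside the points. The 4 whole marrow libraries sit together at the top right, and AML runs from replicate 1 (5.49 for Alas2) to replicate 3 (579) with 0.221 to 0.406 Alas2 counts per Slc4a1 count, beside 0.127 to 0.227 in lineage-negative marrow.

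Most of the listed transcription factors that drive red cell genes were lower in AML against both controls. Of 8 listed erythroid factors, AML had 5 called lower against whole marrow and 7 against lineage-negative marrow, and 0 higher in either. All genes kept had 11.3% and 12.5% called lower in these comparisons, and 27.3% and 17.7% higher. The 3 not called against whole marrow, named after their values were seen, were Nfe2 at −0.05, Lmo2 at −0.26 and Ldb1 at 0.70, with all AML libraries above all whole marrow libraries (0.03 with TMM scaling). Nfe2 was at 0.43 against lineage-negative marrow, not called, while Lmo2 and Ldb1 were called lower there, at −1.22 and −1.14. Gata1, the factor that names the GATA site, averaged 22.4 ± 12.6 normalized counts over AML (SD, n = 7), 808 ± 268 over whole marrow and 1621 ± 112 over lineage-negative marrow (both SD, n = 4). Klf1, which binds CACCC boxes, had 17.2 ± 10.1, 1531 ± 411 and 1839 ± 211 in the same groups. Lineage-negative minus whole marrow was 1.08 for Gata1 on the log2 scale, called, and 0.30 for Klf1, not called, beside −7.31 for Alas2. With TMM scaling these values were 0.37 and −0.41 for the factors, neither called, and −8.02 for Alas2. Log2 differences of AML from lineage-negative marrow were −6.35 for Gata1 and −6.92 for Klf1 in limma (SE 0.40 and 0.41), and −5.60 for Gfi1b, −4.63 for Tal1 and −4.05 for Zfpm1.

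Genes that supply iron and iron-sulfur clusters to the mitochondrion, or move heme there, were lower in part. Of 19 tested, AML had 8 called lower and 1 higher against whole marrow (Pgrmc1, 1.08, and 0.40 with TMM scaling). All genes kept had 11.3% called lower and 27.3% higher there, and with TMM scaling 15.8% and 4.92%. Against lineage-negative marrow 8 were called lower and 0 higher, beside 12.5% and 17.7% of all genes kept. The median log2 difference of the list was −0.06 and −0.65 in these comparisons, beside 0.67 and 0.02 for all genes kept. With TMM scaling the medians of the list were −0.73 and −0.62. Slc25a37, the mitoferrin that feeds iron to Fech, had log2 differences of −3.39 from whole marrow and −0.35 from lineage-negative marrow, of which the first was called. Isca1, which acts in iron-sulfur cluster assembly, differed by −2.59 and −1.31, and the mitochondrial transporter gene Abcb10 by −2.39 and −1.36, all called. Tspo2, an erythroid relative of the translocator protein gene, differed by −6.44 and −5.94, both called. Fam210b differed by −2.57, which was called, and by −0.65, which was not.

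Iron uptake and storage genes were called in both directions with the deposited scaling. Of 12, 3 were called lower and 3 higher in AML than in whole marrow, and with TMM scaling 6 and 0. All genes kept had 11.3% called lower and 27.3% higher there, and with TMM scaling 15.8% and 4.92%. Against lineage-negative marrow 3 were called lower and 1 higher (Ftl1, 1.07), beside 12.5% and 17.7% of all genes kept. Tfrc, the transferrin receptor, differed by −1.59 from whole marrow, which was called, and by −0.86 from lineage-negative marrow, which was not. Its relative Tfr2 differed by −2.58 and −5.49 and the iron transporter gene Slc11a2 by −1.19 and −2.07, all called. Steap3, a ferrireductase of red cell precursors, differed by −0.60, not called but called with TMM scaling at −1.28, and by −2.51, called. The iron exporter gene Slc40a1 was called in neither comparison, at −0.94 and 0.56, but against whole marrow it was called with TMM scaling, at −1.62. The 3 called higher, Aco1, Pcbp1 and Pcbp2, were named after their values were seen and lost their calls with TMM scaling.

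Heme breakdown and export genes were likewise called in both directions. Of 8 tested of 9 listed, 2 were called lower and 3 higher (Bach1, Blvra and Hmox2) in AML than in whole marrow. With TMM scaling these counts were 3 and 0. All genes kept had 11.3% called lower and 27.3% higher there, and with TMM scaling 15.8% and 4.92%. Against lineage-negative marrow 2 were called lower and 2 higher, beside 12.5% and 17.7% of all genes kept. Blvrb, a biliverdin reductase of red cells, differed by −3.13 and −2.75, and the transporter gene Abcg2 by −2.36 and −1.95, all called. Hmox1, the inducible heme oxygenase, averaged 821 ± 240 normalized counts over AML (SD, n = 7), 916 ± 299 over whole marrow and 77.0 ± 47.4 over lineage-negative marrow (both SD, n = 4), and was called higher than in lineage-negative marrow, at 3.50 on the log2 scale. Bach1, a heme-binding repressor, was called higher in both comparisons, at 1.12 and 1.44, the former only with the deposited scaling (0.44 with TMM). The exporter gene Flvcr1 was called in neither, at 1.00 and 0.71, nor was Slc48a1, at −0.34 (−1.02 with TMM scaling, called) and −0.27.

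Genes listed as hemoproteins outside red cells were called in both directions against lineage-negative marrow. The list includes Alox5, whose iron is not held in heme, and Cyba, the partner subunit of the heme-bearing Cybb. Of the 11 listed genes, 3 were called lower and 1 higher (Cyba, 1.002) in AML than in whole marrow. With TMM scaling these counts were 4 and 0, where Cyba was at 0.32 and Alox5 was added at −1.31. Against lineage-negative marrow 3 were called lower and 3 higher, beside 12.5% and 17.7% of all genes kept. Against whole marrow those shares were 11.3% and 27.3%, and with TMM scaling 15.8% and 4.92%. The prostaglandin synthase gene Ptgs2 was called lower in both comparisons, and Ptgs1 was called higher than in lineage-negative marrow. Ptgs2 had a median of 9.29 normalized counts in AML and overlapped with both controls. AML replicate 6, at 91.3, was above the highest whole marrow library at 89.8. Pgrmc1, Ftl1, Blvra, Hmox2, Alox5, Ptgs1 and Ptgs2 were named after their values were seen. Mpo, the myeloperoxidase of neutrophil granules, differed by 0.11 from whole marrow, not called and −0.57 with TMM scaling, and by −2.21 from lineage-negative marrow, called. The phagocyte oxidase genes Cybb and Cyba differed from lineage-negative marrow by 5.12 and 2.84, both called. Epx, the eosinophil peroxidase, differed by −8.05 and −7.57, both called, and catalase (Cat) by −1.13, called, and −0.30, not called.

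Markers of other marrow cells moved with the groups too. Against whole marrow AML had 0 of 8 neutrophil markers called, 6 of 6 monocyte markers higher, and 7 of 7 eosinophil, 6 of 6 B cell and 5 of 6 megakaryocyte markers lower. Of 6 stem and progenitor markers 1 was called higher (Cd34, 1.11, and 0.43 with TMM scaling) and 1 lower (Gata2, −1.63), and with TMM scaling 0 and 2. Against lineage-negative marrow it had 8 of 8 neutrophil, 6 of 6 monocyte and 4 of 6 B cell markers higher, with 6 of 6 stem and progenitor, 5 of 7 eosinophil and 4 of 6 megakaryocyte markers lower. With TMM scaling 1 neutrophil marker was called lower and 5 monocyte markers higher than in whole marrow. All genes kept had 11.3% called lower and 27.3% higher than in whole marrow, and with TMM scaling 15.8% and 4.92%. Against lineage-negative marrow these shares were 12.5% and 17.7%. The summed neutrophil markers were 386784 to 1342280 normalized counts in AML, 415924 to 1120820 in whole marrow and 961 to 16313 in lineage-negative marrow. The summed monocyte markers were 78652 to 149149, 18381 to 39011 and 24408 to 38868 in the same order. Their part in the differences of the heme genes was not tested.

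**Figure D5:**
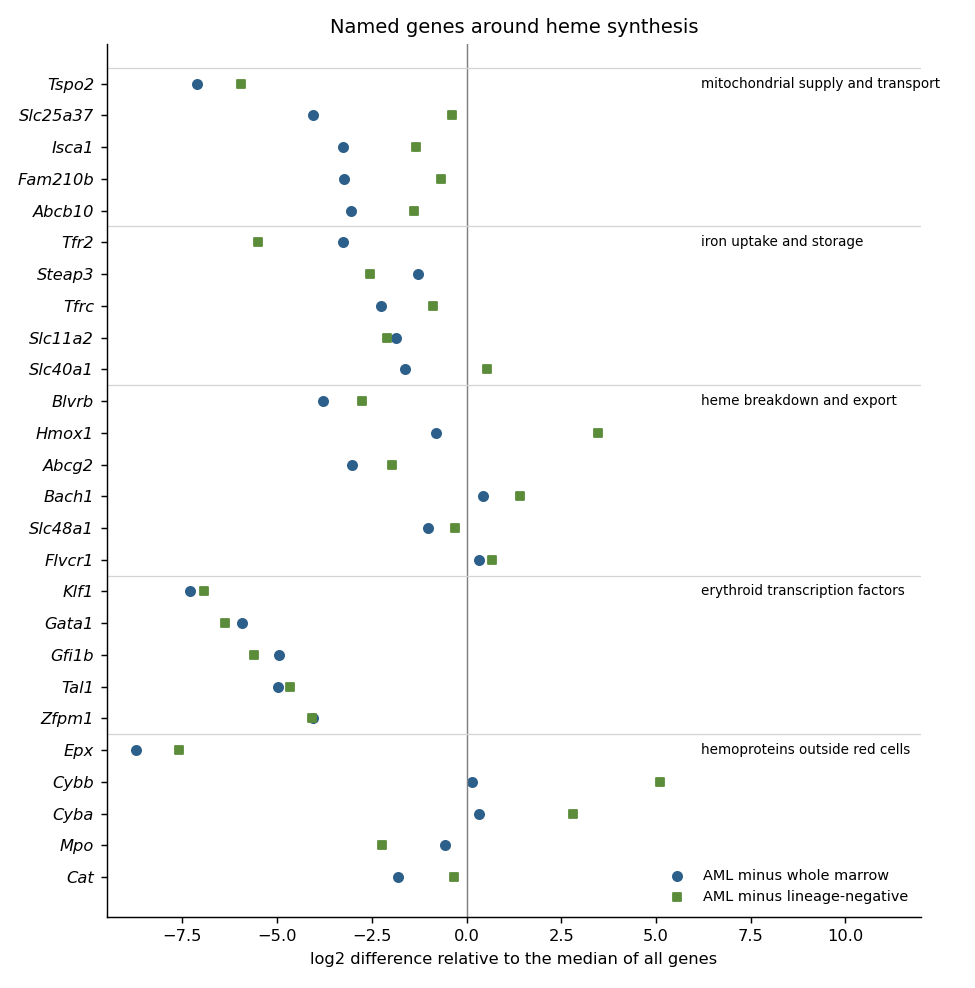
Log2 differences relative to the median of all genes, on the horizontal axis, for named genes around heme synthesis, grouped by list. Circles are AML minus whole marrow and squares AML minus lineage-negative marrow. The 5 erythroid factors shown lie to the left for both, Slc25a37 lies farther to the left for whole marrow (−4.06) than for lineage-negative marrow (−0.38), and Cybb farther to the right for lineage-negative marrow (5.097) than for whole marrow (0.15).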

How the data were processed

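The deposited table holds estimated read counts per gene that the authors divided by a DESeq2 size factor of the poscounts type, per the name of the deposited table (unit signal, called normalized counts). The submitters' processing notes name Partek, STAR, DESeq2 and the build mm10, without versions or roles. The starts in the table matched GRCm38 for 0 of the 9 members, so positions and exon lengths were taken by gene ID from GENCODE M21 (GRCm38). Of the low values, 82.2% to 87.1% were whole multiples of a step within a tolerance of 0.02, so whole reads were not recovered. Depth was estimated from that step, and the value of 3 reads was 1.96 to 4.09 normalized counts, for counting error only. Totals were 10221000 to 29658600 normalized counts.

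Values entered as log2 with a pseudocount of 1 in limma 3.58.1 (R 4.3.3), in a fit of 3 group means with a trended empirical Bayes step, two-sided, adjusted by Benjamini-Hochberg over 18941 genes. Groups and replicate numbers came from the sample titles. The Alas2 to Alas1 ratio was tested by exact permutation of libraries. On simulated data run on 18155 genes with 200 changed by a log2 of 2, limma called 183 for AML against whole marrow and 182 for AML against lineage-negative marrow, with 4 and 6 unchanged genes called. Alternatives were pseudocounts of 0.1 and 5, no filter, quantile and TMM scaling, a mean filter of 50, pairwise fits, a robust step, array weights, a replicate block and leaving out each library. Named were all members, up to 5 genes per list with the largest relative difference and a mean of at least 100, fixed names such as Flvcr1, and the 5 genes most like each synthase. One result under this naming is left out. Members and lists were chosen with earlier results of these data known. Promoters are RefSeq sequence of GRCm38.p6, matched for 8 of 9 members with 11 windows. Python 3.11.15 was used for tables.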

Additional observations from a re-analysis of the deposited data

Results flagged for a closer look

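In 4 of 30 groups of libraries examined gene by gene, an extreme library stood farther from the rest than Dixon's 95% value allows. Chance gives about 1 in 20 only for normally distributed values, and all 4 were flagged on normalized counts without a log. They are therefore a list for a closer look, and their number is not set against chance. Alas2 in AML replicate 3 was 579 normalized counts, with the next library at 246. In lineage-negative replicate 1 Alas2 was 664, with the next at 124. Uros in lineage-negative replicate 4 was 519, with the next at 378. Slc25a38 in whole marrow replicate 1 was 509, with the next at 1111. With TMM scaling these were 1078 and 1407, and all 9 members had their lowest whole marrow value in this library with the deposited scaling. AML replicate 3 also had the highest sum of erythroid markers in AML, 32729, and lineage-negative replicate 1 the highest in its group, 74510.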

How the results depend on the processing

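Over 270 recomputed counts, medians and ratios, 256 kept their direction and stayed near the reported value. With TMM and quantile scaling the median over the members moved from −2.49 to −3.16 and −3.22 for AML minus whole marrow, and from −0.57 to −1.28 and −1.21 for lineage-negative minus whole marrow, where 6 members were called lower by each in place of 3. The median of all genes, 0.67 and 0.59 in these comparisons, was 0.01 and −0.10 with TMM and 0.12 and 0.25 with quantile scaling. Leaving out each library gave 6 to 8 members lower than whole marrow in AML, 5 in every case against lineage-negative marrow, and 2 to 4 for lineage-negative minus whole marrow, where 0 to 1 members were called higher (Alas1, without whole marrow replicate 3 or lineage-negative replicate 3). The Alas2 to Alas1 ratio of AML minus lineage-negative marrow, −0.10, turned to 0.0487 with quantile scaling and to 0.0033 with the replicate block, and ranged from −0.67 to 0.62 over libraries left out. The cause was not tested. For AML minus whole marrow that ratio ranged from −8.86 to −7.61, and for lineage-negative minus whole marrow from −8.87 to −7.65.

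Single genes turned in 7 of 675 values. Alas1 of AML minus whole marrow was −0.18 with TMM and −0.26 with quantile scaling. Alas2 of AML minus lineage-negative marrow was 0.12 with AML replicate 1 left out and 0.29 with lineage-negative replicate 1 left out, within a range of −1.13 to 0.29 over all libraries. Alad of lineage-negative minus whole marrow was 0.03, 0.095 and 0.08 without whole marrow replicates 2, 3 and 4, within a range of −0.34 to 0.095. Slc25a38 of AML minus whole marrow was called with array weights, at −1.09.

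Pairing of libraries by replicate number was not apparent, though this check cannot show that it is absent. Same-numbered libraries of different groups had correlations of −0.29 to 0.17 between their deviations from the group means, over 0.1 in 2 of 12 pairs. Differently numbered libraries had −0.24 to 0.19. With the replicate number as a block, 7, 5 and 3 members were called lower in the 3 comparisons, as without it, and the ratio of AML minus whole marrow was −8.23.

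Tests with DESeq2 and edgeR were not run, because whole reads were not recovered. At 5.49 normalized counts, Alas2 in AML replicate 1 lies close to the value of 3 reads, which limits its fold changes.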

Other observations

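The 4 AML libraries with the most Alas1, replicates 6, 1, 5 and 4, were also the 4 with the most Mpo, at 31826 to 56934 normalized counts against 8584 to 14094 in the other 3. This was chosen after the values were seen and is given without a test.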
